A study of Danio rerio with 6 samples.

Results

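Regulators of the neural crest and of the melanophore lineage were followed in zebrafish melanophores and in melanoma with and without disruption of mgat4b, a gene for a glycosyltransferase that branches N-linked glycans. They comprised every gene model that carries 1 of 8 names (MITF, KIT, TFAP2A, tfap2e, sox10, foxd3, crestin and ednrba), case ignored, which gave 9 of 32520 gene models because MITF names 2. The zebrafish genome holds duplicates of several of these genes, so the copies were told apart by the genes around them in GRCz11 and in the RefSeq annotation of GRCz12tu. The MITF model on chromosome 6 shared 18 of its 40 nearest neighbours with mitfa and 0 with mitfb, and that on chromosome 23 shared 24 with mitfb and 0 with mitfa. By the same comparison KIT was kita, with 21 shared neighbours, and the EDNRB model on chromosome 1 was ednrba, with 9. The zebrafish names are used from here on, with tfap2a for TFAP2A.

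Neural crest cells leave the dorsal neural tube and form pigment cells, peripheral neurons and glia. The transcription factors Foxd3, Sox10 and Tfap2a act early in them, and crestin is a zebrafish transcript that marks premigratory and migrating crest. Sox10 and Tfap2a promote transcription of mitfa, whose product commits cells to the melanophore fate and switches on pigment genes. Kit, a receptor for Kit ligand, guides migration and survival of these cells, and the endothelin receptor Ednrba is needed for adult melanophore stripes.

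The 3 groups held 2 libraries each. Wild-type melanophores came from skin and were described as nontransformed. Control melanoma came from MAZERATI fish, in which plasmids injected into embryos used the mitfa promoter to express an oncogenic BRAF and Cas9 in melanocytes, with guide RNAs against the tumor suppressors p53 and ptena/b. The study named the control plasmid as an empty vector in some places and as nontargeting in others. In mgat4b mutant melanoma the plasmids also targeted mgat4b. These cells are therefore mosaic for the mutation and carry the same oncogene and tumor suppressor guides as the control. The study reports rapid, aggressive tumors in control fish. In mgat4b mutant fish it reports signs of melanocyte aggregation but no melanoma. Mutant and control melanoma thus differ in tumor formation as well as in mgat4b targeting, and mutant melanoma is used as a label only. All fish were 1 month old and of the Assam wild-type strain (ASWT), and melanophores were enriched from skin and melanoma biopsies by a Percoll density gradient. The melanoma groups therefore hold transformed cells together with other melanocytes and, by their markers, further cell types. The sample titles call the libraries of each group biological replicates. The series design text speaks of 5 zebrafish, without saying how they were divided. The p-values therefore measure only the spread between libraries, which may be technical despite those titles. The plasmids of this model derive from a vector with a mitfa minigene, replaced by GFP in the plasmid that targets mgat4b. Reads of a minigene and of mitfa itself cannot be told apart.

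Depth ranged from 3538922 to 8446997 counts per library, and from 20044 to 25475 gene models had a count. The mutant libraries were the shallowest and the most variable, with a biological coefficient of variation of 0.257 against 0.0875 in control melanoma and 0.0668 in wild-type melanophores. The targeted gene, mgat4b, stood at 15.7 and 16.2 CPM (counts per 1000000 counts of the library, on library sizes scaled by edgeR with trimmed means of M values, TMM) in control melanoma and at 19.8 and 15.1 in mutant melanoma (log2 difference 0.17, with an SE, its standard error, of 0.28, adjusted p = 0.717), so its transcript does not check the mutant label. Melanophore identity was checked with 14 markers of melanin synthesis and melanosomes. They summed to 29.2 and 26.3 CPM in the wild-type libraries, 239 and 242 in control melanoma and 255 and 235 in the mutant libraries. Of these, dct, a melanin enzyme, had 1 and 3 counts in the wild-type libraries, 14 and 15 in control melanoma and 7 and 0 in the mutant libraries. pmela was better covered, with 45 and 45, 422 and 456, and 444 and 265 counts. Keratinocyte markers summed to 18829 and 19283 CPM in the wild-type libraries, far above the pigment markers. The name wild-type melanophores is therefore used as the label of the wild-type libraries only. In bulk libraries such as these, fewer cells of a type and less RNA per cell cannot be told apart.

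Per kilobase of gene length, kita was the most abundant of the regulators in each group. In wild-type melanophores kita stood at 9.49 ± 1.56 CPM per kilobase (SD, n = 2), followed by mitfb at 8.18 ± 0.729 and tfap2a at 7.01 ± 0.356. The library ranges of kita and mitfb overlapped, so their order is not resolved. In control melanoma ednrba moved to second place with 8.91 ± 0.549 CPM per kilobase, behind kita at 10.8 ± 1.19. In mutant melanoma kita at 13.3 ± 1.21 and ednrba at 12.5 ± 1.28 overlapped. The ranges of sox10, mitfa, tfap2e and mitfb also overlapped from each to the next in that group, where their means lay between 0.463 and 1.34 CPM per kilobase. At the bottom, crestin had the lowest mean in all 3 groups. It stood at 0.0684 ± 0.0634 in the wild-type libraries, 0.308 ± 0.142 in those of control melanoma and 0 in those of mutant melanoma. Its range overlapped that of tfap2e in the wild-type libraries, so their order is not resolved, and mitfb was also at 0 in the second mutant library.

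**Figure D1:**
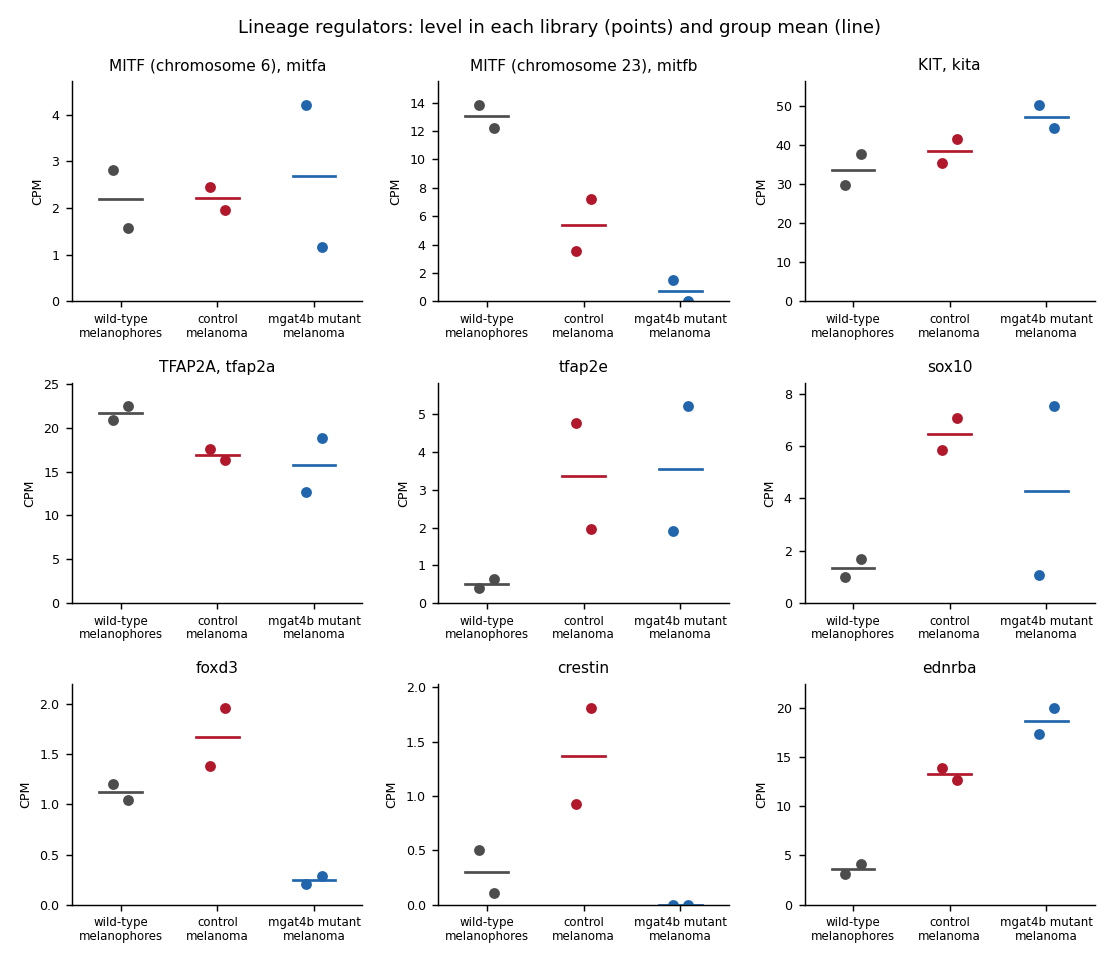
Level of each regulator in CPM (vertical axis, separate scale per panel) in the 2 libraries of each group, with points for libraries and a line for the group mean. mitfb runs from 13.9 and 12.2 in wild-type melanophores to 1.48 and 0 in mutant melanoma, and ednrba runs the other way, from 3.11 and 4.18 to 17.3 and 19.98.

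Control melanoma differed from wild-type melanophores in 4 of the 8 regulators that passed the filter on low counts: tfap2e, sox10 and ednrba were higher and mitfb was lower. A gene was called when its adjusted p from edgeR's quasi-likelihood test (Benjamini-Hochberg, over all genes tested) was under 0.05 and its log2 fold change was at least 1 in size. By that rule 31.9% of the 19088 genes tested were called, 19.9% higher and 12.1% lower. The median log2 fold change of the 8 regulators was 0.50, against -0.01 over all genes tested. Against the same wild-type libraries, mutant melanoma had 2 calls among 7 tested regulators, ednrba higher and mitfb lower, where 19.3% of 17950 genes were called, 9.72% higher and 9.57% lower. The regulators' median there was 0.57, against -0.03 for all genes. Between mutant and control melanoma none of 7 tested regulators was called by edgeR, where 12.5% of 17651 genes were, 5.86% higher and 6.68% lower. The count with an unadjusted p under 0.05 was 1, mitfb, which was also the only call of DESeq2. Both melanoma groups were compared with the same wild-type libraries.

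Scaling mattered to the small changes. The most abundant gene took 7.65% of counts in wild-type melanophores, 37.3% to 37.4% in control melanoma and 26.2% to 30.7% in mutant melanoma. Without the trimmed-mean scaling, on plain library totals, the median of all genes shifted to -0.90 in control melanoma and -0.63 in mutant melanoma against wild-type melanophores, and to 0.19 between the melanoma groups. The share of calls that were higher then went from 62.2% to 18.5%, from 50.4% to 16.7% and from 46.7% to 64.0%. The calls of tfap2e, sox10, ednrba and mitfb given above all held on that scale, and tfap2a was called lower in control melanoma as well (-1.13, adjusted p = 4.2e-08), which lies 0.23 below the shifted median.

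**Figure D2:**
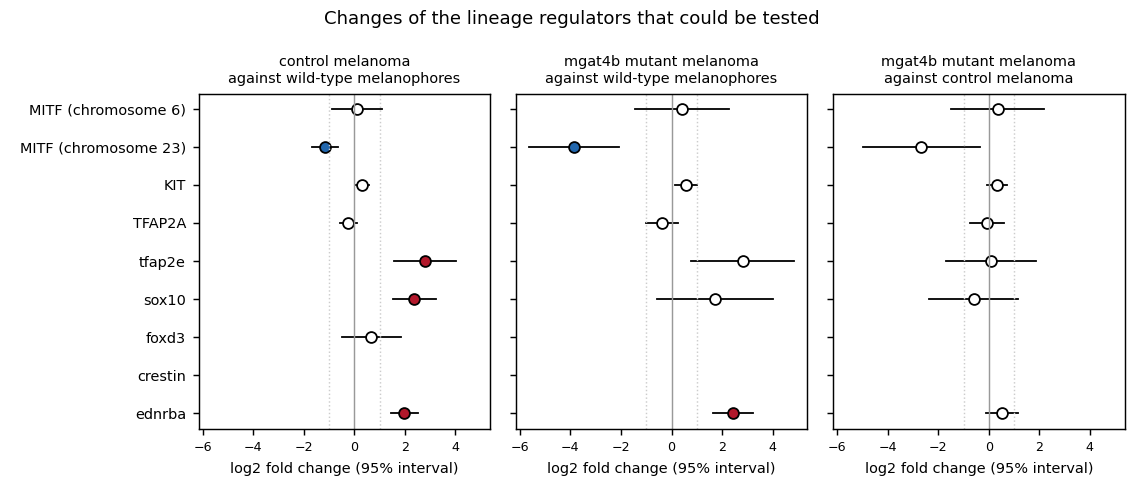
Log2 fold change (horizontal axis) of each regulator that passed the filter on low counts, with its 95% interval, in the 3 comparisons of pairs of groups. Red circles are called higher, blue circles lower and white circles not called, and dotted lines mark the minimum fold change. crestin was tested in none and foxd3 only in the first.

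mitfa, the master gene of the melanophore fate (ENSDARG00000003732, GRCz11 chr6:43390387-43433277, plus strand, 13 exons), was counted sparsely. It had 28 and 15 counts in the wild-type libraries, 16 and 13 in control melanoma and 20 and 4 in the mutant libraries, which is 2.81 and 1.57, 2.46 and 1.96, and 4.22 and 1.16 CPM. All 3 groups overlapped, and the mutant libraries lay above and below the other 4. Against wild-type melanophores mitfa differed by 0.13 on the log2 scale in control melanoma (95% interval -0.86 to 1.11, adjusted p = 0.844), 0.41 in mutant melanoma (-1.44 to 2.26, adjusted p = 0.735) and 0.35 between the melanoma groups (-1.48 to 2.18, adjusted p = 0.814). The intervals of both mutant comparisons reach past the minimum fold in either direction, and that of control melanoma reaches past it only for a rise. The sign of each comparison depended on single libraries: it was -0.26 in control melanoma without the second wild-type library and -0.05 without the first control library, and -0.85 and -0.90 in the mutant comparisons without the first mutant library.

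mitfb (ENSDARG00000037833, chr23:711075-764135, minus strand, 10 exons) was the only regulator called lower by edgeR with all libraries and trimmed-mean scaling. This duplicate of mitfa is expressed in the eye of zebrafish embryos and is not required for neural crest melanophores. It had 138 and 117 counts in the wild-type libraries, 23 and 48 in control melanoma and 7 and 0 in the mutant libraries. As CPM this was 13.9 and 12.2, then 3.54 and 7.25, then 1.48 and 0, and no group overlapped another. The fall in control melanoma was -1.15 on the log2 scale (SE 0.26, adjusted p = 2.0e-04). Without the first control library it was -0.73, short of the minimum fold, and in a single fit of all 6 libraries its adjusted p was 0.0824. In mutant melanoma mitfb was 3.87 lower on the log2 scale than in wild-type melanophores (SE 0.75, adjusted p = 0.0107), a call that held without any one library. Against control melanoma the difference was -2.67 (SE 1.02, 95% interval -4.99 to -0.35, adjusted p = 0.106) and was not called. DESeq2 gave an adjusted p of 0.0497 and the fit of all 6 libraries 0.0259. Without the second mutant library, which has 0 counts, the difference was -1.83 (adjusted p = 0.0132), in a fit where the lone mutant library is taken to vary like the control libraries.

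The balance of the MITF duplicates followed from these counts. mitfb held 83.1% and 88.6% of the counts of both copies in the wild-type libraries, 59.0% and 78.7% in control melanoma, and 25.9% and 0% in the mutant libraries. The exact 95% intervals were 76.6% to 88.5% and 82.0% to 93.5% in wild-type melanophores. In the mutant libraries they were 11.1% to 46.3% and 0% to 60.2%, the latter from 4 counts. Such intervals cover counting error only. Any reads of a plasmid mitfa minigene in the melanoma libraries would count as mitfa and lower the mitfb share there. Their part in these shares was not tested. The wild-type intervals lay above those of both mutant libraries. The first control interval (42.1% to 74.4%) overlapped the mutant intervals, and the second (66.3% to 88.1%) those of wild-type melanophores.

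sox10 (ENSDARG00000077467, chr3:1492174-1501255, plus strand, 4 exons) encodes the SoxE factor needed for all nonectomesenchymal crest derivatives, glia included. It had 10 and 16 counts in the wild-type libraries, 38 and 47 in control melanoma and 5 and 26 in the mutant libraries. That is 1.00 and 1.67 CPM, 5.84 and 7.10 CPM, and 1.05 and 7.53 CPM. Control melanoma lay above both wild-type libraries, while one mutant library stood among the wild-type values and the other above the control values. The rise in control melanoma was 2.38 on the log2 scale (SE 0.41, adjusted p = 3.0e-06) and was called under every alternative in which it was tested. The mutant values were 1.72 against wild-type melanophores (SE 0.96, adjusted p = 0.232) and -0.60 against control melanoma (SE 0.78, adjusted p = 0.650), neither called. Each hung on which mutant library was used. Without the first, the difference from wild-type melanophores was 2.54 (adjusted p = 4.2e-05) and that from control melanoma 0.24 (adjusted p = 0.691). Without the second they were -0.27 (adjusted p = 0.831) and -2.57 (adjusted p = 4.4e-04).

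Schwann cells and other glia also express sox10, and their markers moved with it in part. The 15 markers of Schwann cells and glia summed to 272 and 242 CPM in the wild-type libraries, 530 and 512 in control melanoma and 317 and 325 in the mutant libraries. In control melanoma 11 of the 15 were higher than in wild-type melanophores and 1 was lower, beside 19.9% and 12.1% of all genes tested. The myelin genes mbpa, mpz and plp1b rose by 6.75, 5.51 and 5.59 on the log2 scale. s100b, listed with 0 counts in both wild-type libraries, averaged 19.4 CPM. The marker called lower was a FABP7 model (ENSDARG00000034650) at -1.72, and the myelin gene mbpb stood at -0.47, below the minimum fold. Between mutant and control melanoma 4 of 15 were lower, with mbpa at -2.27, and 1 was higher, the myelin gene mag at 1.35. Of all genes tested there, 6.68% were lower and 5.86% higher. The Schwann cell sums of the mutant libraries were alike, whereas their sox10 levels, from 5 and 26 counts, were not. PMP22 (115 and 108 CPM) and mag (79.1 and 88.9) were the most abundant markers in those sums. Some less abundant markers differed between the mutant libraries, in both directions. GLDN stood at 1.27 and 4.34 CPM, and a second FABP7 model (ENSDARG00000007697) at 9.698 and 4.05. The part of Schwann cells and glia in the sox10 result was not tested.

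foxd3 (ENSDARG00000021032, chr6:32092032-32093830, minus strand, a single exon), a forkhead factor of premigratory crest and glial precursors, was near the limit of these libraries. It was covered by 12 and 10 counts in the 2 wild-type libraries, 9 and 13 in control melanoma and 1 and 1 in the mutant libraries, or 1.21 and 1.04, 1.38 and 1.96, and 0.211 and 0.290 CPM. Both mutant libraries were below the other 4. In control melanoma the log2 fold change was 0.68 (SE 0.58, adjusted p = 0.319). The filter on low counts removed the gene from both mutant comparisons. As a ratio of summed counts over scaled library size, its level was 4.62 times as high in wild-type melanophores as in mutant melanoma (95% counting interval 1.13 to 40.5), and 6.87 times as high in control melanoma (1.69 to 60.3). Without the filter edgeR gave -2.11 (adjusted p = 0.323) and -2.64 (adjusted p = 0.242) for these comparisons, so that neither was called once the spread between libraries was counted.

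crestin (ENSDARG00000105570, chr4:47257854-47262290, plus strand, a single exon) had 5 and 1 counts in the wild-type libraries, 6 and 12 in control melanoma and 0 in both mutant libraries. A floor of 3 counts per library corresponds to 0.633 and 0.869 CPM in the mutant libraries. Set against that floor, crestin was at least 1.82-fold lower in mutant than in control melanoma, whose libraries stood at 0.923 and 1.81 CPM. edgeR did not call that difference without the filter (adjusted p = 0.176), nor in the fits it entered with the first or the second mutant library left out (0.0911 and 0.0534). Wild-type melanophores at 0.502 and 0.104 CPM were too low for a fold against the mutant libraries. With all libraries in, it passed the filter in no comparison. Without the filter the log2 difference of control melanoma from wild-type melanophores was 2.15 (SE 0.91, adjusted p = 0.0843), and in fits where it passed the filter it was called with the first wild-type library left out (3.60, adjusted p = 0.0390) or the first control library left out (2.62, adjusted p = 0.0402) but not without the second wild-type library (1.51, adjusted p = 0.285). In such fits the lone library is taken to vary like the other group.

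tfap2a and tfap2e encode AP-2 factors that act together in zebrafish melanophore differentiation. tfap2a (ENSDARG00000059279, chr24:8721676-8732519, minus strand, 9 exons) had 208 and 215 counts in the wild-type libraries, 114 and 108 in control melanoma and 60 and 65 in the mutant libraries. Its CPM were 20.9 and 22.5, 17.5 and 16.3, and 12.7 and 18.8. Both melanoma groups lay below the wild-type libraries and overlapped each other. The log2 differences were -0.24 in control melanoma (SE 0.17, adjusted p = 0.216) and -0.39 in mutant melanoma (SE 0.27, adjusted p = 0.320), with -0.08 between the melanoma groups (95% interval -0.76 to 0.61, adjusted p = 0.892). Keratinocytes also express tfap2a. The 15 keratinocyte markers summed to 11697 and 11491 CPM in control melanoma and 15721 and 15226 in the mutant libraries, below the wild-type sums. The markers did not all move with their sum. Of 14 tested against wild-type melanophores, 0 were higher and 2 lower in control melanoma, beside 19.9% and 12.1% of all genes tested. In mutant melanoma 2 were higher and 3 lower, beside 9.72% and 9.57%, with krt17 higher by 1.23 on the log2 scale (adjusted p = 1.4e-04). The part of keratinocytes in the tfap2a values was not tested.

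tfap2e (ENSDARG00000008861, chr19:47429722-47456787, minus strand, 8 exons) was low in wild-type melanophores and higher in melanoma. Its counts were 4 and 6 there, 31 and 13 in control melanoma and 9 and 18 in the mutant libraries, or 0.402 and 0.627, 4.77 and 1.96, and 1.90 and 5.21 CPM. Every melanoma library was above both wild-type libraries, and the melanoma groups overlapped each other. The log2 fold change in control melanoma was 2.79 (SE 0.61, adjusted p = 1.1e-04). Without the first control library it was 2.02 and was no longer called (adjusted p = 0.0773). In mutant melanoma it was 2.81 (SE 0.86, adjusted p = 0.0510), just short of the threshold, with an adjusted p of 0.0288 in the fit of all 6 libraries and 1.9e-04 without the first mutant library. Mutant and control melanoma differed by 0.09 (95% interval -1.68 to 1.86, adjusted p = 0.955).

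Of the receptors, kita (ENSDARG00000043317, chr20:22335511-22378401, minus strand, 21 exons) changed little. It had 297 and 361 counts in the wild-type libraries, 231 and 275 in control melanoma and 239 and 153 in the mutant libraries, which is 29.8 and 37.7, 35.5 and 41.5, and 50.4 and 44.3 CPM. Mutant melanoma lay above both other groups, which overlapped each other. Relative to wild-type melanophores kita stood 0.31 higher on the log2 scale in control melanoma (SE 0.13, adjusted p = 0.0366), below the minimum fold, and 0.57 in mutant melanoma (SE 0.18, adjusted p = 0.0519). On plain library totals these became -0.58 and -0.03, which are 0.32 and 0.60 above the shifted medians of all genes. Between the melanoma groups it was 0.34 (95% interval -0.05 to 0.73, adjusted p = 0.214). In mammals mast cells carry Kit too. Of 8 names listed for leukocytes and mast cells, 5 were matched (SPI1, CORO1A, LCP1, lyz and ptprc), none of them particular to mast cells. These leukocyte markers summed to 693 and 724 CPM in wild-type melanophores and to between 185 and 225 in the melanoma libraries. Against wild-type melanophores 1 was higher and 3 lower in control melanoma, beside 19.9% and 12.1% of all genes tested. In mutant melanoma 1 was higher and 4 lower, beside 9.72% and 9.57%. lyz went from 3.11 and 3.45 CPM in the wild-type libraries to 11.4 and 11.3 in control melanoma and 14.3 and 9.845 in the mutant libraries. The part of mast cells in the kita values was not tested.

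ednrba (ENSDARG00000089334, chr1:28624186-28629471, minus strand, 7 exons) was higher in both melanoma groups. Counts of 31 and 40 were found in the wild-type libraries, 90 and 84 in control melanoma and 82 and 69 in the mutant libraries. At 3.11 and 4.18, 13.8 and 12.7, and 17.3 and 19.98 CPM, no group overlapped another. The rise was 1.98 on the log2 scale in control melanoma (SE 0.27, adjusted p = 1.7e-08), or 3.94-fold, and 2.43 in mutant melanoma (SE 0.33, adjusted p = 0.00254), or 5.39-fold. Both calls held under every alternative in which the gene was tested, with log2 values of 1.09 to 2.17 and of 1.83 to 2.63. The step from control to mutant melanoma was 0.52 (95% interval -0.11 to 1.16, adjusted p = 0.233). Iridophores, the reflective pigment cells, also express ednrba in zebrafish. Their 10 markers summed to 117 and 130 CPM in the wild-type libraries, 157 and 178 in control melanoma and 336 and 337 in the mutant libraries. In the order of the comparisons 6, 7 and 3 of 10 were higher and none lower, where 19.9%, 9.72% and 5.86% of all genes tested were higher. ATIC and PAICS, enzymes of purine synthesis, were the most abundant in the mutant libraries, at 71.7 and 72.4 CPM and at 77.6 and 57.9. pnp4a, also among the 10, moved less. It stood at 7.83 and 9.19 CPM in the wild-type libraries, 13.1 and 13.3 in control melanoma and 17.5 and 17.4 in the mutant libraries. Outside the 10, tfec, a marker of iridophore precursors, was lower in mutant than in control melanoma (-0.66, adjusted p = 0.393). So was the receptor gene ltk (-0.90, adjusted p = 0.0109), and neither was called in that comparison. Against wild-type melanophores ltk was called higher in control melanoma (1.72, adjusted p = 3.3e-15). In mutant melanoma it stood at 0.75 (adjusted p = 0.0432), below the minimum fold. tfec was called in neither of these comparisons (-0.25 and -0.99). The xanthophore sums went from 52.4 and 45.0 CPM to between 143 and 167 in the melanoma libraries. The part of these pigment cells in the ednrba result was not tested.

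Levels were also set against the melanophore markers, whose sum was higher in every melanoma library than in the wild-type ones. That division lowers all genes alike in melanoma, so only the melanoma groups, with close marker sums, are compared on it. Per 1000 counts of the 14 markers, mitfa had 10.3 and 8.10 counts in the control libraries and 16.5 and 4.92 in the mutant libraries. sox10 had 24.4 and 29.3, then 4.14 and 32.0. kita had 148 and 171, then 198 and 188, and ednrba 57.8 and 52.4, then 67.8 and 84.9. mitfa and sox10 overlapped between the groups and kita and ednrba did not, as on the CPM scale.

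**Figure D3:**
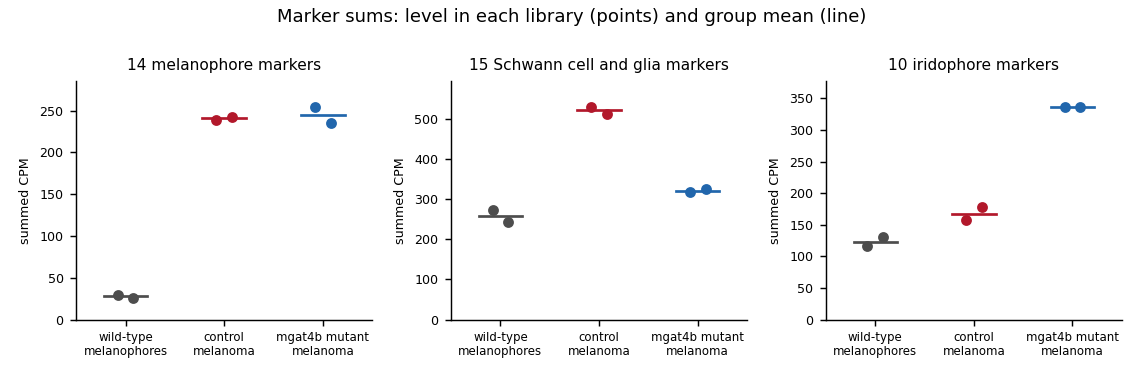
Summed CPM (vertical axis, separate scale per panel) of the markers of melanophores, of Schwann cells and glia, and of iridophores in each library. Points are libraries and lines group means. The melanophore sum stands at 29.2 and 26.3 in wild-type melanophores and between 235 and 255 in melanoma.

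The wider lineage network was read from a list of 64 gene models, 39 for transcription factors of the crest and pigment cells and 25 for their signalling. In control melanoma 20 of the 51 tested were higher than in wild-type melanophores and 3 lower, beside 19.9% and 12.1% of all genes tested. Of the transcription factors 14 of 32 were higher and 2 lower, and of the signalling genes 6 of 19 were higher and 1 lower. In mutant melanoma 5 of 50 were higher and 6 lower than in wild-type melanophores, beside 9.72% and 9.57% of all genes. Against control melanoma 1 of 52 was higher and 3 lower, beside 5.86% and 6.68%. The list's median log2 values were 0.62, 0.19 and -0.25 in that order, beside -0.01, -0.03 and -0.02 for all genes tested.

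Among the transcription factors, large rises in control melanoma belonged to zic2 (ENSDARG00000015554), a zinc finger factor of the neural plate border and neural tissue, and to snai1b, a repressor that acts as cells leave an epithelium. zic2 went from 1.51 and 0.731 CPM in the wild-type libraries to 10.3 and 11.3 in control melanoma and 0.211 and 1.74 in the mutant libraries. It rose by 3.36 on the log2 scale in control melanoma (adjusted p = 6.6e-11) and differed by -3.53 between mutant and control melanoma (adjusted p = 0.0123, or 0.0731 without the second control library). snai1b went from 1.105 and 1.88 CPM to 9.997 and 11.3 in control melanoma, a rise of 2.95 (adjusted p = 5.7e-10), and stood at 5.48 and 2.03 in the mutant libraries. The 7 fibroblast markers summed to 60185 and 61676 CPM in control melanoma, against 4213 and 3703 in wild-type and 10993 and 10510 in mutant libraries. Against wild-type melanophores, control melanoma had 7 of 7 higher, beside 19.9% of all genes tested. Mutant melanoma had 7 of 7 lower than control, beside 6.68%. The part of fibroblasts in the snai1b and zic2 values was not tested. The neuron markers, like zic2, were highest in control melanoma, at 50.0 and 53.3 summed CPM against 9.74 and 7.83 in the wild-type libraries. In the mutant libraries they summed to 18.8 and 6.37, where zic2 had only 1 and 6 counts. The part of neurons in the zic2 values was not tested. ets1, which in zebrafish acts in blood and vessel precursors as well as in crest, fell from 35.7 and 38.8 CPM to 12.1 and 12.8 in control melanoma (-1.46, adjusted p = 1.9e-11). Against wild-type melanophores the PAX7 model ENSDARG00000070818 was called higher in control melanoma (1.33, adjusted p = 7.2e-06) but not in mutant melanoma (0.02, adjusted p = 0.984). In mutant melanoma the leading rises over wild-type melanophores were those of another PAX7 model and of a DLX2 model, both also called higher in control melanoma. The former, pax7 (ENSDARG00000100398), a factor of xanthophore precursors, stood at 2.13 in control melanoma (adjusted p = 1.4e-05), and dlx2 (ENSDARG00000017174) at 2.06 (adjusted p = 1.05e-05). Between the melanoma groups neither was called (0.58 and 0.19). In mutant melanoma pax7 rose by 2.64 (adjusted p = 0.00951) and dlx2 by 2.18 (adjusted p = 0.0208). Both depended on the wild-type libraries: pax7 had an adjusted p of 0.105 without the second, and dlx2 had 0.266 and 0.186 without the first or the second, in fits where the lone wild-type library is taken to vary like the mutant ones.

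Of the relatives of mitfb, tfe3b and tfeb were also called lower in melanoma, while mitfa, the second tfe3 model and tfec were called in no comparison. The MiT factors TFEB and TFE3 regulate lysosomal genes, and Tfec is a marker of iridophore precursors in zebrafish. tfe3b stood at 27.6 and 26.3 CPM in the wild-type libraries, 9.69 and 14.95 in control melanoma and 8.86 and 7.82 in the mutant libraries. It was lower by the call rule in control melanoma (-1.01, adjusted p = 3.2e-06) and in mutant melanoma (-1.60, adjusted p = 0.00386). The first of these is at the edge of the minimum fold, with -0.74 without the first control library and -0.999 without the first wild-type library. tfeb stood at 30.7 and 28.4, 18.3 and 13.0, and 12.4 and 7.53 CPM and was called lower in mutant melanoma only of the 3 comparisons (-1.46, adjusted p = 0.0102), with -0.80 in control melanoma. The second tfe3 model, listed as TFE3, held 26.1 and 23.6, 40.1 and 30.7, and 25.7 and 28.4 CPM and was not called. tfec stood at 8.44 and 11.3, 6.77 and 8.46, and 4.22 and 5.21 CPM and was not called either.

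The endothelin axis around ednrba held several other calls. The type A receptor ednraa, best known from jaw patterning, was at 7.13 and 7.10 CPM in the wild-type libraries, 16.1 and 16.8 in control melanoma and 49.3 and 32.1 in the mutant libraries, with no overlap. It was higher in each comparison, by 1.32 (adjusted p = 9.4e-07), 2.60 (adjusted p = 7.4e-04) and 1.35 (adjusted p = 0.00588) on the log2 scale. On plain library totals the first of these was 0.43 (adjusted p = 0.0719), and without the first mutant library the last was 0.99. The other type B receptor, ednrbb, went from 0.603 and 0.627 CPM to 2.00 and 1.06, and to 2.53 and 4.92 in mutant melanoma, called there at 2.63 (adjusted p = 0.0433) but not with DESeq2 (0.0755) nor without either wild-type library (0.531 and 0.535). ednrab had 1 count or none in the wild-type and control libraries and 0 and 8 in the mutant libraries, and was not tested. The ligand gene edn3b was higher in control melanoma, at 2.92 and 2.87 CPM against 1.31 and 0.418 (1.84, adjusted p = 0.00482, or 0.150 without the second wild-type library), with 4.43 and 0 in mutant melanoma. Endothelin is cut to its active form by converting enzymes. ECE2 fell from 44.3 and 51.0 CPM in control melanoma and 46.1 and 48.9 in wild-type melanophores to 16.2 and 10.4 in mutant melanoma, by 1.78 (adjusted p = 0.00145) and 1.73 (adjusted p = 0.00242) on the log2 scale. ECE1 stood at 38.8 and 41.1 CPM in mutant melanoma against 26.0 and 25.4 in control melanoma, below the minimum fold.

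**Figure D4:**
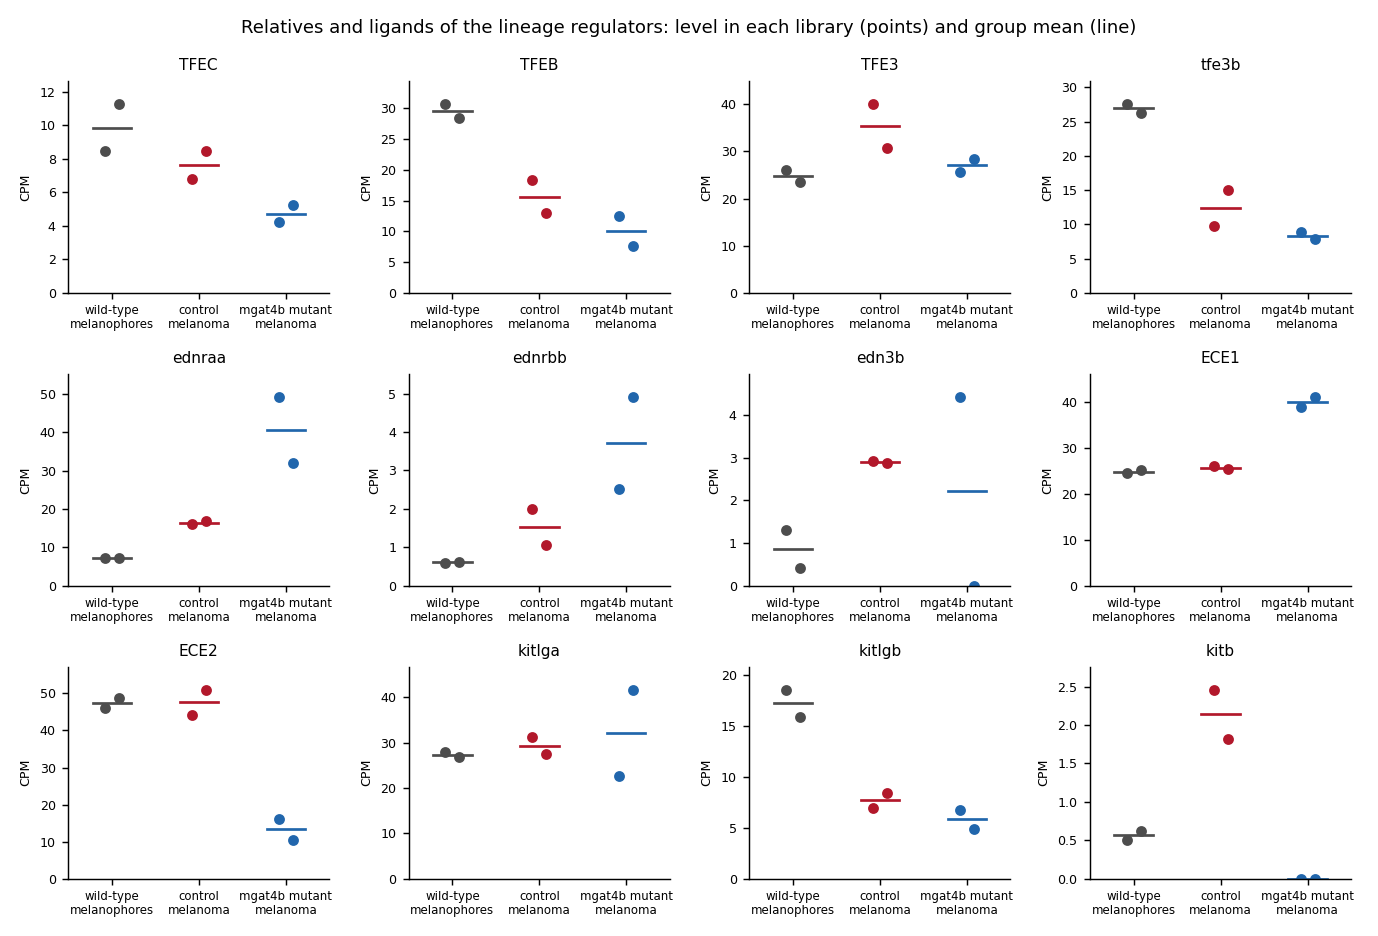
Level in CPM (separate scale per panel) of relatives, ligands and converting enzymes of the regulators in each library, with lines for group means. tfe3b is at 27.6 and 26.3 in wild-type melanophores and at 14.95 or less in melanoma, ednraa reaches 49.3 and 32.1 in mutant melanoma, and ECE2 drops to 16.2 and 10.4 there.

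For the Kit axis, the ligand gene kitlga, which supports larval melanophores, stood at 27.8 and 26.8 CPM in the wild-type libraries, 31.2 and 27.5 in control melanoma and 22.6 and 41.7 in the mutant libraries, with all groups overlapping. The second ligand gene, kitlgb, was lower in both melanoma groups, at 18.6 and 15.9 CPM in the wild-type libraries, 6.92 and 8.46 in control melanoma and 6.75 and 4.92 in the mutant libraries. It was called at -1.05 in control melanoma (adjusted p = 5.2e-05) and -1.46 in mutant melanoma (adjusted p = 0.0157). The first value was -0.95 without the first wild-type library and -0.91 without the first control library, and the second had adjusted p of 0.224 and 0.0959 without either wild-type library. The second receptor gene, kitb, had 5 and 6 counts, then 16 and 12, then 0 and 0. Its rise in control melanoma (2.01, adjusted p = 0.00506) was not called by DESeq2 (adjusted p = 0.0553). Nor was it called without either wild-type library (0.0980 and 0.0653) or without the first control library (0.127). A further AP-2 gene, tfap2c, which in zebrafish acts with tfap2a in crest induction and is also expressed in epidermis, was far above both AP-2 regulators at 190 and 180, 129 and 137, and 216 and 201 CPM. Its difference between mutant and control melanoma was 0.69 (adjusted p = 0.00253), below the minimum fold.

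The genes whose profiles lay nearest to each regulator were found by the Euclidean distance between centred log2(CPM + 1) values over the 6 libraries, among 15728 others with a symbol that passed the filter in all 3 comparisons. For mitfb these were gja13.2, INPP4A and cbx7a, at distances of 0.58 to 0.74. ednrba lay nearest to FDFT1, an enzyme of sterol synthesis, at 0.20, followed by myl10 and mchr2b. kita was nearest to bcam, GANAB and BAG4, and tfap2a to THRA, rorab and AVIL, with distances from 0.09 to 0.17 between them. Of the sparsely counted regulators, mitfa lay nearest to LARP6, si:ch211-202f3.4 and CRTAC1, tfap2e to GPR161, SNORA62 and BNC2, and sox10 to SDK2, SLC8A1 and DGAT2. These distances are a description, since the 6 libraries share 3 groups.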

How the data were processed

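Zebrafish RNA of 6 libraries was sequenced as ribosome-depleted, stranded total RNA. The authors used Trimmomatic for trimming, STAR 2.7.8 for alignment to GRCz11 and featureCounts for counting. They deposited 1 table of raw counts per library, with no normalization. The annotation release, strand setting and treatment of reads matching several genes are not given in the sources used here, so reads of duplicates such as mitfa and mitfb could be shared or lost. None of the 9 regulators overlapped another gene model.

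Groups and replicates came from the sample labels. Each pair of groups was compared on its 4 libraries in R 4.3.3 with edgeR 4.0.16 (limma 3.58.1): filterByExpr with a minimum count of 10 and minimum total of 15, trimmed-mean scaling, and quasi-likelihood tests with Benjamini-Hochberg adjustment over all genes tested. CPM used all 6 libraries scaled together. The procedure was tested on simulated counts. Within every group the libraries differed beyond counting noise (chi-square per gene 2.31, 2.52 and 10.2). Symbols were matched for 29201 of 32520 gene models, and duplicates were named from 40 neighbouring genes. Alternatives were DESeq2 1.42.0, its size factors, other filters, a fit of all 6 libraries, a replicate block, other library sizes, no minimum fold and leaving out each library. Plain library totals were added after the data were seen.

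The regulators and gene lists were chosen with earlier results of these data known. Named besides the regulators were, per comparison, up to 3 higher and 3 lower called lineage genes of largest change with a mean of at least 2 CPM, paralogs and ligands whatever their values, and the 3 nearest profiles. TFEB, TFE3, TFEC and ECE1, and the markers named, were chosen after their values were seen. ltk and the PAX7 model ENSDARG00000070818 were also named outside that selection. Folds against groups of 3 counts or fewer per library are bounds or counting ratios. A result for 1 gene that this rule takes is not reported here.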

Additional observations from a re-analysis of the deposited data

How the results depend on the processing

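Of 254 values of single regulators under other settings, 227 kept their direction and their side of the call rule, 15 turned, 9 gained and 3 lost a call. On plain library totals, in control melanoma against wild-type melanophores, mitfa turned to -0.76, kita to -0.58 and foxd3 to -0.20, and in mutant melanoma mitfa turned to -0.21 and kita to -0.032. Between the melanoma groups tfap2a turned to 0.15 on that scale. With each library left out in turn, mitfa ranged from -0.26 to 0.59 in control melanoma against wild-type melanophores, from -0.85 to 1.00 in mutant melanoma against wild-type melanophores and from -0.90 to 0.95 between the melanoma groups. sox10 ranged from -0.27 to 2.54 in mutant melanoma against wild-type melanophores and from -2.57 to 0.24 against control melanoma. Also against control melanoma, tfap2a ranged from -0.39 to 0.17 and tfap2e from -0.79 to 0.85. The cause was not tested.

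In mutant melanoma against wild-type melanophores the number of regulators called was 1 of 3 with at least 10 counts in every library, since fewer were tested, and 2 to 4 with a library left out (main value 2). Against control melanoma it was 1 with DESeq2 and 1 in the fit of all 6 libraries, and 0 to 2 with a library left out (main value 0). Of the wider lineage genes, 37 rather than 23 were called in control melanoma without a minimum fold. In mutant melanoma against wild-type melanophores 6 to 19 were called with a library left out (main value 11). Against control melanoma 7 were called with DESeq2, 2 without the filter, 9 in the fit of all 6 libraries, 8 without a minimum fold and 2 to 14 with a library left out (main value 4). A fit without a mutant library takes the lone one to vary like the other group, whose spread was smaller, and the counts above 11 and 9 came from such fits. Without the filter on low counts the median of all genes was -0.26 and -0.20 in the mutant comparisons.

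With the replicate number as a block, 4, 2 and 0 regulators were called, as without it, and 5941, 3488 and 2147 genes in all. Among the other lineage genes named, the block ended the call of ednrbb in mutant melanoma (adjusted p = 0.149). Deviations of same-numbered libraries correlated at -0.01, 0.01 and 0.01 over 19496 genes. Such values show no common deviation over these genes, but they cannot tell whether same-numbered libraries shared a preparation.

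Depth limits foxd3, crestin, kitb and ednrab, whose mutant libraries held at most 1 count each except for 8 of ednrab in one library.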
